A study of Homo sapiens with 16 samples.

Results

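Accessible chromatin of selected MDA-MB-231 cells on soft gel was set against that of ancestral cells on stiff gel, to ask whether selected cells on soft gel regained the chromatin of the parental population on stiff gel. MDA-MB-231, derived from a breast adenocarcinoma, is a widely used human cell line, and all 16 samples are labelled wild type. The series holds 4 groups of 4 samples: selected cells on soft gel (1 kPa), selected cells on stiff gel (308 kPa), ancestral cells on soft gel (1 kPa) and ancestral cells on stiff gel (308 kPa). Gels were polyacrylamide carrying type I collagen, and selection was by repeated passage on such gels for 75 days. The protocol describes selection on both stiffnesses, the series design speaks of soft-selected cells, and the labels do not say on which gel the cells called selected on stiff had been selected. The 2 groups compared thus differ in both history and gel, and these cannot be told apart in the direct comparison. The other 2 groups are given beside it for that reason.

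ATAC-seq finds open chromatin by letting a transposase cut it, and each deposited list gives 1 set of peaks for a whole group. On chromosomes 1 to 22, peaks that overlapped by at least 1 bp were merged, and 146435 regions held a peak of selected soft or ancestral stiff, of 161185 regions over all 4 lists. When the peaks of these 2 lists alone were merged, 81208 regions held a peak of both. Pileup, the number of fragments at a peak summit, was divided in each list by its median over the 70318 regions present in all 4 lists, so that 1 is the typical level of such a region. Each group has a single list, so the spread between samples is unknown and no group difference was tested. In such bulk libraries, more cells with an open region, a more open region per cell and more copies of the region cannot be told apart. The 95% intervals given are exact Clopper-Pearson intervals, or exact order-statistic intervals for a median, and cover counting error only.

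Cells sense a stiff matrix through integrins and focal adhesions, and contract against it through the kinase ROCK and actomyosin. On stiff matrix the coactivators YAP and TAZ enter the nucleus and act with TEAD factors on genes such as CCN1 and CCN2, while myocardin-related factors act with SRF on actin genes. Gene starts are usually open and often rich in G and C, whereas distal elements open in a more cell-type-specific way.

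The promoter sequences below are shown because the regions that separated selected soft from ancestral stiff included GC-rich gene starts, and because a few less GC-rich gene starts lay the other way. They are from RefSeq (GRCh38.p14) and run from 250 bases before to 50 bases after the start site, 5′ to 3′ on the strand of the gene. PDXK, which encodes the pyridoxal kinase of vitamin B6 metabolism, lies at chr21:43718879-43719178 on the plus strand, and SKIL, a repressor of SMAD signalling, at chr3:170357465-170357764 on the plus strand. GNG7, a G protein gamma subunit, lies at chr19:2702645-2702944 on the minus strand, and SNX9, a sorting nexin of endocytosis, at chr6:157822996-157823295 on the plus strand. RHOJ, a small GTPase related to CDC42, lies at chr14:63204193-63204492 on the plus strand, and PDGFD, a platelet-derived growth factor, at chr11:104164098-104164397 on the minus strand. Capitals mark matches, on either strand and allowed to overlap, to AP-1 (TGANTCA), TEAD (GGAATG), the CArG box of SRF, CRE (TGACGTCA), ETS (CCGGAA), NF-Y (CCAAT), SP/KLF (GGGCGG) and the NRF1 motif.
PDXK: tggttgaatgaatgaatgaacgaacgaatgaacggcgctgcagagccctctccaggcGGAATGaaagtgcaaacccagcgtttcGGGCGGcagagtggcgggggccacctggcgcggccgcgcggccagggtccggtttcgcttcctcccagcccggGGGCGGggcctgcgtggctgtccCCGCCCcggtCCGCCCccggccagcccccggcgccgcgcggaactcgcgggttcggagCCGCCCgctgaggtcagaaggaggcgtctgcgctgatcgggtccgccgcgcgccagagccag
SKIL: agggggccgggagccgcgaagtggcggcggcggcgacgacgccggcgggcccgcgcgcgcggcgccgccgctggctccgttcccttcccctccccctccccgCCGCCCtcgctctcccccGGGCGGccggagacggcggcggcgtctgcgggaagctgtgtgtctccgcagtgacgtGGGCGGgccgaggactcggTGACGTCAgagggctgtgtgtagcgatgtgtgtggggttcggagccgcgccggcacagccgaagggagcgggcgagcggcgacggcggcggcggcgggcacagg
GNG7: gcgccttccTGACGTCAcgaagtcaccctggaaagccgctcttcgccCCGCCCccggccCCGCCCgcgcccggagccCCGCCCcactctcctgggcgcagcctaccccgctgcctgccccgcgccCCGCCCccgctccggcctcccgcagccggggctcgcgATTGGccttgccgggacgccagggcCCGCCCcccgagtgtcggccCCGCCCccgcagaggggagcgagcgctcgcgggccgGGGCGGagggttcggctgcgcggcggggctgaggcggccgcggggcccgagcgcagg
SNX9: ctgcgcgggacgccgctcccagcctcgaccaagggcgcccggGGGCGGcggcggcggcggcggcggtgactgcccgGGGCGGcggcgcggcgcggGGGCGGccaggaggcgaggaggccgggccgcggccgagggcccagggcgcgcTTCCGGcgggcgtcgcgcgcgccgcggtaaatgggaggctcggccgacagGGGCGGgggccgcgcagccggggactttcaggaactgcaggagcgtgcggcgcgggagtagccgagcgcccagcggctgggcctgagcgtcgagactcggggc
RHOJ: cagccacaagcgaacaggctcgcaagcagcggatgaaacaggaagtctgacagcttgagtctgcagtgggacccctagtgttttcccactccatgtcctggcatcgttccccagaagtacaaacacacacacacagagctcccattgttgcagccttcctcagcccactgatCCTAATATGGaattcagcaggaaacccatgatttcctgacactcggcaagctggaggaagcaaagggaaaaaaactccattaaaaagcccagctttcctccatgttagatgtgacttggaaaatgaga
PDGFD: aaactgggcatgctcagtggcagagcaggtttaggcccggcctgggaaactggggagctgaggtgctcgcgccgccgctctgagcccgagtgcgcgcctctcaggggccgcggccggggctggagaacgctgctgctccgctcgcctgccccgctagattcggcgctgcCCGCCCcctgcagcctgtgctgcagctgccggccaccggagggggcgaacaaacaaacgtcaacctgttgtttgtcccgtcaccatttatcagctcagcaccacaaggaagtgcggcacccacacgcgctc
G and C made up 72.3% of the PDXK window, 79% of SKIL, 82% of GNG7, 82.3% of SNX9, 49.7% of RHOJ and 67.3% of PDGFD. The first 4 hold between 3 and 7 SP/KLF matches each. RHOJ holds a single CArG match and PDGFD a single SP/KLF match. Of 15101 promoters of that length, 58.7% hold an SP/KLF match, 36.1% NF-Y, 23.0% ETS, 12.0% NRF1, 11.8% TEAD, 5.64% AP-1, 2.62% CRE and 1.23% a CArG box. These are matches to letters, chosen for display after the values were seen.

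At the PDXK start, scaled pileup was 0.903 in selected soft, 3.28 in selected stiff, 1.77 in ancestral soft and 4.93 in ancestral stiff. SKIL gave 1.71, 3.79, 3.24 and 5.16 in that order of groups. Both were lowest in selected cells on soft gel and highest in ancestral cells on stiff gel. GNG7 had no peak in selected soft and stood at 2.30 in selected stiff, 1.83 in ancestral soft and 2.01 in ancestral stiff. SNX9 likewise had none in selected soft, with 1.46, 1.24 and 1.88 in the other groups. RHOJ ran the other way, at 6.68 in selected soft, 5.56 in selected stiff, 3.32 in ancestral soft and 2.79 in ancestral stiff. PDGFD stood at 3.77 and 3.30 in selected soft and selected stiff, and at 1.74 in both ancestral groups. At RHOJ and PDGFD the selected groups were thus higher on either gel.

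The lists differ in how faint a peak they could hold. Peaks on chromosomes 1 to 22 numbered 128150 in selected soft, 120833 in selected stiff, 107292 in ancestral soft and 113458 in ancestral stiff. No read totals are given, so depth is known only from the background pileup, which was 13.5, 12.6, 16.3 and 20.2 fragments in the same order, the median fold enrichment 3.59, 4.19, 6.47 and 6.27, and −log10 q reached 10 in 57.2%, 63.0%, 78.5% and 81.2% of peaks. The faintest peak had a scaled pileup of 0.290 in selected soft and 0.132 in ancestral stiff, so a shared region of low level could only be found where selected soft was relatively high. Start-site peaks of VIM, CAV1, ZEB1 and EGFR, active in this mesenchymal line, were in all 4 lists, and the starts of PTPRC (blood), NEUROD1 (neuron) and ESR1 (luminal breast) had none in any. CD44, likewise a mesenchymal marker, stood at 5.28 in selected soft and 5.69 in selected stiff. Its start met skipped peak numbers in both ancestral lists, and that of AXL met them in all 4 lists, so their absence there is undetermined. GATA3, KRT8 and PGR, luminal markers, KDR, an endothelial marker, and PDGFRA and PDGFRB, fibroblast markers, also had a start-site peak in all 4 lists. So did SPI1, a blood cell marker, and EPCAM and ESRP1, epithelial markers, for which either end of the gene counted. SPI1 stood at 3.8 in selected soft, 3.62 in selected stiff, 3.46 in ancestral soft and 3.47 in ancestral stiff, and PGR at 0.699, 0.692, 0.421 and 0.286. CDKN2A had none in any.

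Over all 81208 shared regions the median log2 ratio of selected soft to ancestral stiff was 0.19 (0.19 to 0.20). At least 2-fold higher in selected soft were 16347 regions (20.1%) and at least 2-fold lower 1894 (2.33%). This lean depended on level. In the lowest decile of mean level the median was 1.22 and 73.4% of regions were past 2-fold higher, whereas in the eighth decile the median was −0.21, with 1.57% of regions higher and 5.72% lower. In the highest decile the median was 0.00. Centring within deciles left 3689 regions higher and 2405 lower, and centring on the regions within 5 Mb left 8345 and 4014. Scaling over the regions of these 2 lists instead of all 4 moved the median to 0.064, lowering every ratio alike. Strong regions, with a mean level of at least 1 and clear of stretches with skipped peak numbers, carry much of the account that follows. There were 34640 of them, with a median of −0.12 (−0.12 to −0.11), 670 at least 2-fold higher (1.93%) and 1323 lower (3.82%). Without the limit on level, the 80067 regions clear of such stretches gave 19.8% higher and 2.34% lower.

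**Figure D1:**
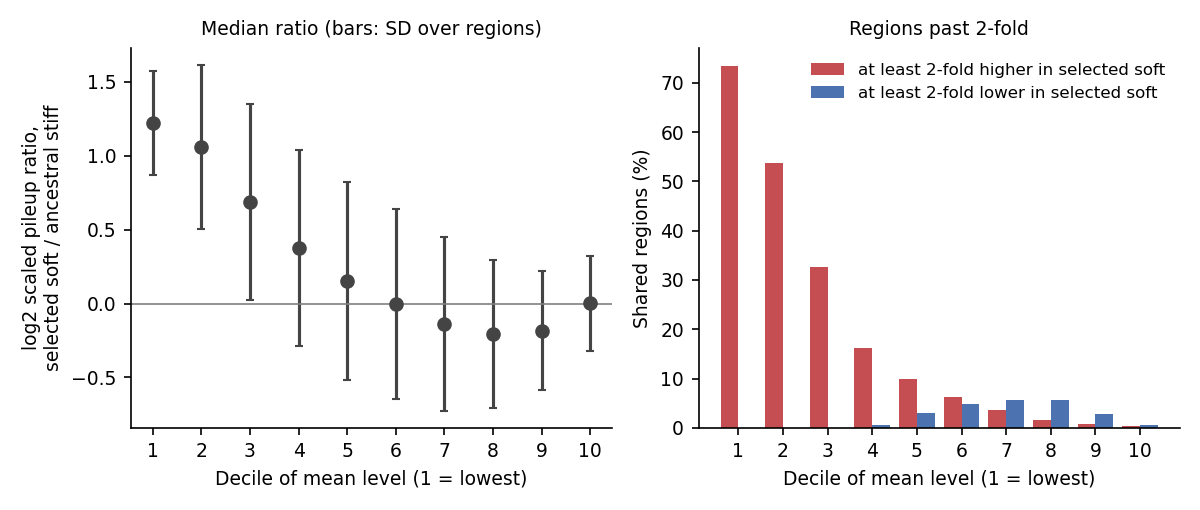
Left, the median log2 ratio of scaled pileup (selected soft over ancestral stiff, bars 1 SD over regions) by decile of mean level over the shared regions. Right, the percent of regions in each decile at least 2-fold higher or lower in selected soft; the median runs from 1.22 in the lowest decile to 0.00 in the highest, with −0.21 in the eighth.

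Among all pairs of lists, selected soft and ancestral stiff were the least alike at regions of all 4 lists with a mean level of the pair of at least 1, none left out for skipped peak numbers (34732 regions for this pair). The share of regions past 2-fold was 5.74% in this pair, against 3.42% between selected soft and ancestral soft and 1.32% between selected soft and selected stiff. It was 2.34% between selected stiff and ancestral stiff, 2.97% between selected stiff and ancestral soft and 0.333% between ancestral soft and ancestral stiff. The SD of the log2 ratio at these regions was 0.50 for selected soft over ancestral stiff, 0.44 for selected soft over ancestral soft and 0.41 for selected stiff over ancestral stiff. Regions with a peak in both lists made up 54.6% of the regions of selected soft or ancestral stiff, and also 54.6% for selected soft with ancestral soft. The pairs share lists and are given side by side, with no test between them.

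Of the strong regions with a peak in all 4 lists, 589 were at least 2-fold higher in selected soft than in ancestral stiff. Their median scaled pileup was 2.28 in selected soft, 1.96 in selected stiff, 1.12 in ancestral soft and 0.843 in ancestral stiff. In 550 of them (93.4%) selected stiff was nearer to selected soft than to ancestral stiff, and in 81 (13.8%) ancestral soft was, against 58.8% and 35.0% over all 33872 such regions. Their medians were high in selected cells on either gel. Gene starts made up 16 of them (2.72%) and places farther than 100 kb from a protein-coding gene 308 (52.3%), against 27.9% and 8.69% of the 33872. Higher regions were not spread evenly over the genome. Of all 670 strong regions at least 2-fold higher, 91 lay at 40 to 50 Mb of chromosome 5. A further 74 lay at 120 to 130 Mb of chromosome 1 and 77 at 20 to 30 Mb of chromosome 19. These windows hold or adjoin centromeres, and how many of the 589 lie in them was not counted. The 1314 regions at least 2-fold lower had medians of 1.13 in selected soft, 1.75 in selected stiff, 2.24 in ancestral soft and 2.76 in ancestral stiff. Here selected stiff was nearer to selected soft in 714 (54.3%) and ancestral soft in 233 (17.7%). Gene starts made up 417 of these (31.7%) and places farther than 100 kb 141 (10.7%), both near the shares of the 33872.

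The largest strong differences in the higher direction among regions within 100 kb of a gene were chosen after the values were seen. A region inside PRKCA, which encodes protein kinase C alpha, had the highest level among them, at 13.4 in selected soft, 9.69 in selected stiff, 3.21 in ancestral soft and 2.08 in ancestral stiff (chr17:66798253-66799832, log2 ratio 2.69). A region 54545 bp from MATN1, a cartilage matrix gene, stood at 4.34, 2.99, 0.975 and 0.571 in the same groups (log2 ratio 2.93). Inside CACNA1H, a T-type calcium channel gene, the values were 4.88, 4.03, 0.728 and 0.693. The start of F7, the gene of a liver-made coagulation factor, was the gene start in this set, at 3.68 in selected soft, 4.13 in selected stiff, 0.599 in ancestral soft and 0.611 in ancestral stiff. At all 4 genes both selected lists were above both ancestral lists. Regions at TRPM4, a cation channel gene, and near LGALSL, a galectin-like gene, had log2 ratios of 2.65 and 2.58.

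In the lower direction, SUN1 led with a log2 ratio of −2.82. SUN1 encodes an inner nuclear membrane protein of the LINC complex, which ties the nucleus to the cytoskeleton. Its region (chr7:816364-817754) stood at 0.484 in selected soft, 0.523 in selected stiff, 4.24 in ancestral soft and 3.42 in ancestral stiff, with the summit at 817441 in selected soft and 816559 in ancestral stiff, so that the values come from different places in the region. Inside PPL, the periplakin gene of epithelial cells, the values were 0.430, 0.598, 2.22 and 2.75. Near FBLN2, a gene of the matrix protein fibulin-2, they were 0.656, 0.654, 3.17 and 3.47. Inside PKNOX2, a homeobox gene, they were 0.645, 1.13, 4.52 and 4.04, and inside GRIK4, a glutamate receptor gene, 0.731, 1.65, 4.72 and 4.57. At these genes selected cells were lower on both gels. PDXK, FAM169A, YPEL1 and GLTP differed in this respect, with selected stiff well above selected soft. GLTP, the glycolipid transfer protein gene, stood at 0.656 in selected soft, 2.79 in selected stiff, 1.65 in ancestral soft and 3.33 in ancestral stiff, with the summit at 109880170 in selected soft and 109880528 in ancestral stiff.

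The question of regain was put directly to the regions that differed by gel in ancestral cells. Of the 35091 regions in all 4 lists with an ancestral mean level of at least 1, none left out for skipped peak numbers, 821 were at least 1.5-fold higher in ancestral stiff than in ancestral soft. Selected soft was nearer to ancestral stiff at 100 of them (12.2%, 10.0% to 14.6%), and selected stiff at 534 (65.0%, 61.7% to 68.3%). Over all 35091 the shares were 42.3% and 53.5%. The median log2 difference of selected soft was −0.87 from ancestral stiff and −0.12 from ancestral soft. For selected stiff it was −0.28 and 0.50. Selected soft lay below ancestral stiff at 800 regions, below ancestral soft at 518 and below selected stiff at 771. The choice of regions with a high ancestral stiff and a low ancestral soft itself raises the first count and lowers the second. These counts were not taken over all 35091 regions. Without the limit on level, 1758 regions were at least 1.5-fold higher in ancestral stiff. Selected soft was nearer to ancestral stiff at 666 of them (37.9%, 35.6% to 40.2%) and selected stiff at 1238 (70.4%). Across the 6 other settings tried, the share ran from 12.2% to 50.2% for selected soft and from 57.0% to 73.7% for selected stiff, and selected stiff had the larger share in each.

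The 366 regions at least 1.5-fold lower in ancestral stiff than in ancestral soft gave another picture. Selected soft was nearer to ancestral stiff at 205 of them (56.0%, 50.8% to 61.2%) and selected stiff at 241 (65.8%). Without the limit on level, the shares were 16.1% and 27.3% of 2595 regions. The result thus turned with the level of the regions. Over all 2595 the median log2 level was −1.67 in ancestral stiff, near the lowest log2 level that selected soft held, −1.78.

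**Figure D2:**
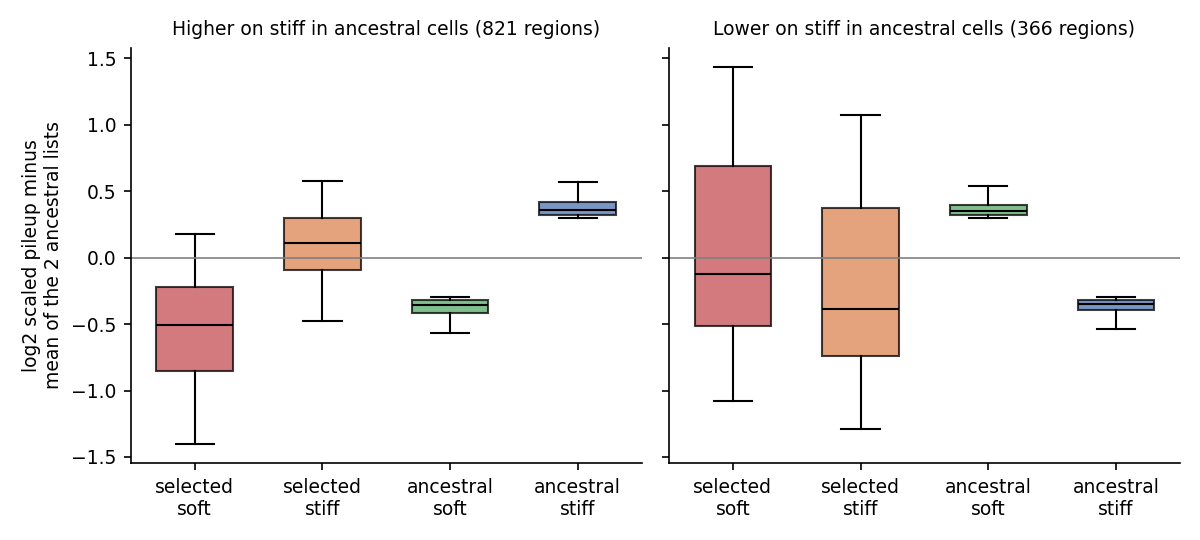
Boxes show the log2 scaled pileup of each list minus the mean of both ancestral lists (box, quartiles; line, median; whiskers, percentiles 5 and 95 over regions) at regions 1.5-fold higher (821, left) or lower (366, right) on stiff gel in ancestral cells. In the left panel the median is −0.51 in selected soft, 0.11 in selected stiff, −0.35 in ancestral soft and 0.35 in ancestral stiff.

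The regions with the largest ancestral gel difference show the pattern gene by gene. At the start of SIAH1, a ubiquitin ligase gene, scaled pileup was 0.505 in selected soft, 1.34 in selected stiff, 0.708 in ancestral soft and 2.29 in ancestral stiff. At FAM169A the values were 0.505, 1.81, 0.847 and 2.65, and at YPEL1 1.11, 3.71, 1.88 and 5.66. At these gene starts selected soft lay below ancestral soft. DUSP16, a phosphatase of MAP kinases, followed at 0.785, 2.50, 1.34 and 3.69, and GALNT2, which starts O-linked glycosylation, at 1.02, 2.97, 1.76 and 4.59. Near DLL4, a Notch ligand gene, selected soft and ancestral soft both stood at 1.26, with 2.08 in selected stiff and 3.71 in ancestral stiff. Of the 15 genes named by size in this direction, SLC45A4 alone was nearer to ancestral stiff, and RAB12 and EXOC6 also lay above ancestral soft. SLC45A4 had 2.13 in selected soft, 2.71 in selected stiff, 0.777 in ancestral soft and 2.03 in ancestral stiff.

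Among the genes named by size at regions lower on stiff gel in ancestral cells, selected soft matched ancestral stiff at some. Inside FABP6, the gene of an ileal bile acid binding protein, scaled pileup was 1 in both selected soft and ancestral stiff, against 0.682 in selected stiff and 2.47 in ancestral soft. A region 40436 bp from LIFR, the receptor gene for leukaemia inhibitory factor, stood at 0.903 in selected soft, 0.673 in selected stiff, 1.54 in ancestral soft and 0.704 in ancestral stiff. A region near SLC16A1, the gene of a lactate transporter, stood at 0.892, 0.551, 1.76 and 0.882. These were low in both selected lists. The largest difference, 37872 bp from HGSNAT, ran otherwise, at 2.54 in selected soft, 2.25 in selected stiff, 1.96 in ancestral soft and 0.761 in ancestral stiff. At the regions of DEFB115, ID4, TPTE and KIAA0319L, also named by size, selected soft was likewise not nearer to ancestral stiff.

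The genes of all the lists together, which also cover the cell cycle, hypoxia and cell type markers, held 33 regions higher on stiff gel in ancestral cells, at 28 genes. Selected soft was nearer to ancestral stiff at 3 of the 33 (9.09%), selected stiff at 19 (57.6%), and selected soft was below ancestral stiff at 31 (93.9%). Over all 821 regions the shares were 12.2%, 65.0% and 97.4%, so the listed genes lay near them. The share below ancestral stiff is raised in both sets by the choice of regions. At the start of ROCK2, the kinase that drives actomyosin contraction, scaled pileup was 1.13 in selected soft, 2.46 in selected stiff, 1.62 in ancestral soft and 3.58 in ancestral stiff. The start of ARHGAP29, a GTPase-activating protein, stood at 1.16, 3.63, 2.57 and 4.07. DOCK1, an activator of Rac, stood at 0.634, 1.32, 0.792 and 1.48 at its start, and ARHGEF12, a guanine nucleotide exchange factor, at 1.74, 2.60, 2.02 and 3.66. At these 4 gene starts selected soft was the lowest of the groups. A region inside DOCK1 ran the other way, at 2.92 in selected soft, 1.96 in selected stiff, 1.5 in ancestral soft and 0.975 in ancestral stiff, and at the ARHGAP42 start selected soft, at 2.71, was above ancestral soft, at 2.57. ARHGEF2, an exchange factor bound to microtubules, was nearer to ancestral stiff, at 1.14 in selected soft, 1.52 in selected stiff, 0.856 in ancestral soft and 1.44 in ancestral stiff.

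Targets of YAP and TAZ and genes of TGF-beta signalling showed both kinds. The start of IGFBP3, a binding protein of insulin-like growth factors, stood at 1.77 in selected soft, 4.77 in selected stiff, 2.80 in ancestral soft and 5.34 in ancestral stiff. A region inside PTPN14, a phosphatase that restrains YAP, stood at 0.731, 1.76, 0.921 and 1.91. The start of TGFBR1, the type I receptor of TGF-beta, stood at 4.44, 9.23, 5.75 and 9.02, so that selected stiff matched ancestral stiff and selected soft lay below ancestral soft. A region inside TGFBR2, the type II receptor, stood at 1.54, 2.50, 0.901 and 1.44, with selected soft at the level of ancestral stiff. INSIG1, which holds back sterol synthesis, had a start at 5.66, 9.95, 7.10 and 12.5 and a region 17689 bp away at 2.63, 1.93, 1.31 and 0.818. The start and the distal region of INSIG1 thus ran in opposite directions. Of the 11 regions of listed genes lower on stiff gel in ancestral cells, selected soft was nearer to ancestral stiff at 8 (72.7%, against 56.0% of all 366), among them regions in EGFR, TNC, ADAM12, FBN1 and SMAD6.

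Gene starts made up 401 of the 821 regions higher on stiff gel in ancestral cells (48.8%), against 27.9% of the 35091 regions of that level and 10 of the 366 lower regions (2.73%). Selected soft was nearer to ancestral stiff at 19 of the 401 (4.74%) and selected stiff at 295 (73.6%). At the 223 regions inside genes the counts were 43 (19.3%) and 133 (59.6%). Over all 9782 gene starts of that level the shares were 36.8% and 56.0%, and over all regions inside genes 44.6% and 53.0%. The promoters at these gene starts had a median GC content of 75% (313 with sequence), against 65.7% for the 7720 promoters at all gene starts of that level. GC content thus moved with the result, and its part in it was not tested.

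The whole set of promoters showed the same gradient. Promoters in regions of all 4 lists were divided into quintiles of GC content. The median log2 ratio of selected soft to ancestral stiff was 0.07, 0.09, 0.03, −0.08 and −0.34 with increasing GC, at a median GC of 53%, 60.7%, 65.7%, 70.7% and 77%. That of selected stiff to ancestral stiff was 0.08, 0.13, 0.14, 0.13 and 0.07, and that of ancestral soft to ancestral stiff −0.04, 0.00, −0.01, −0.06 and −0.19. Both soft groups were thus lower at the most GC-rich promoters, selected soft more so. The regions higher on stiff gel in ancestral cells, counted at an ancestral mean level of at least 1, were also concentrated there. They held 186 of the 1737 promoters of any level in the top quintile (10.7%). In the lower quintiles the shares, again of promoters of any level, were 1.76%, 1.12%, 1.34% and 3.07% with increasing GC. Selected soft was nearer to ancestral stiff at 6 of the 186 and selected stiff at 135. Over 9819 promoters in regions shared by selected soft and ancestral stiff, Spearman's rank correlation between GC content and log2 ratio was −0.317, as a description across promoters of the same 2 lists.

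**Figure D3:**
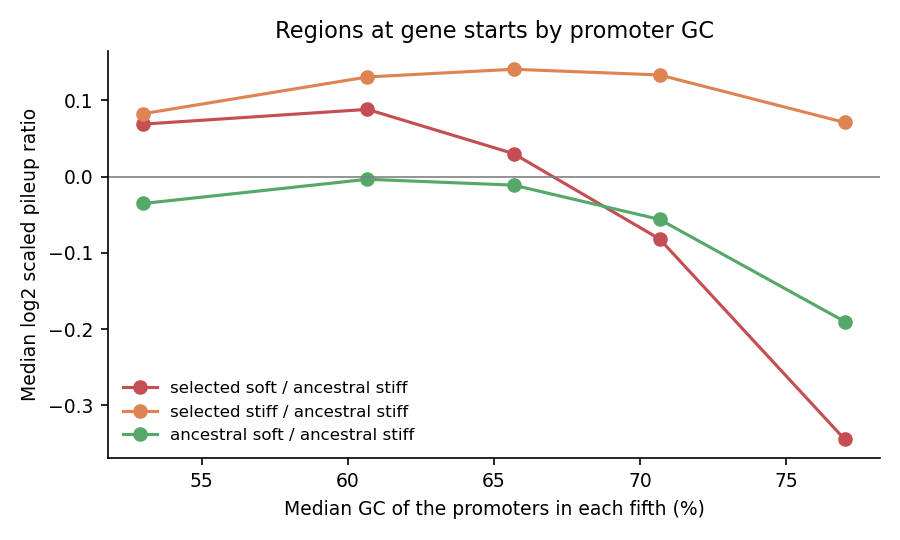
Median log2 ratio of scaled pileup to ancestral stiff (vertical) against the median GC content in percent of promoters in each quintile (horizontal), for selected soft, selected stiff and ancestral soft. Selected soft reaches −0.34 in the top quintile, ancestral soft −0.19 and selected stiff 0.07.

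The place of the summit moved with GC content as well. A summit more than 150 bp from that of ancestral stiff was found at 10.5% of 6737 promoter regions in selected soft, 5.63% in selected stiff and 5.86% in ancestral soft. In the top GC quintile, with 1069 regions, the shares were 23.9%, 9.35% and 10.2%. Strong peaks were also called narrower in selected soft: at 31337 strong regions made of 1 peak in each list, the median width was 1295 bp in selected soft and 1424 bp in ancestral stiff, and 28.2% were wider in selected soft. At 41784 such regions of level under 1, the median widths were 697 and 701 bp. The median fold enrichment of the lists also differed, at 3.59 in selected soft and 6.27 in ancestral stiff. Its part in the widths was not tested.

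Gene lists were described by the median log2 ratio at their strong regions, beside −0.11 over 31607 strong regions of all protein-coding genes, of which 0.981% were at least 2-fold higher and 3.74% lower. Low medians were those of basal and myoepithelial markers, at −0.35, inflammatory cytokine and NF-kB genes at −0.33, mesenchymal and EMT genes at −0.32, and YAP/TAZ-TEAD target genes at −0.31 over 140 regions with 0 higher and 10 lower. The highest medians were 0.05 for nuclear envelope and LINC complex genes and 0.04 for sterol synthesis genes, both of which would lie below 0 with the scaling over the regions of these 2 lists. Over shared regions of any level, the medians were −0.13 for YAP/TAZ targets and 0.16 for all genes.

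**Figure D4:**
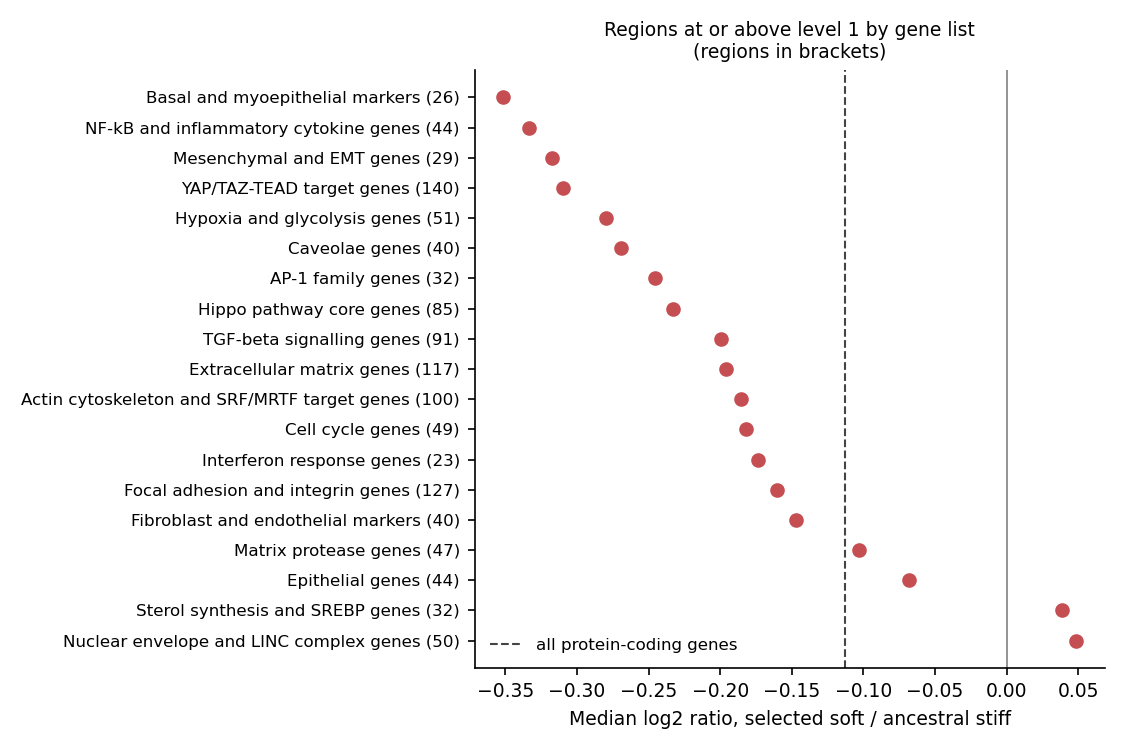
Median log2 ratio of scaled pileup (selected soft over ancestral stiff) over the strong regions of the gene lists reported here with at least 20 of them, the number of regions in brackets; the dashed line is the median over all protein-coding genes, −0.11. Basal and myoepithelial markers lie lowest of those plotted at −0.35 and nuclear envelope and LINC complex genes highest at 0.05, which would lie below 0 with scaling over these 2 lists.

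Within the YAP/TAZ list, NUAK2, a kinase gene, had a median log2 ratio of −0.64 over 6 shared regions, and CRIM1, a gene of a membrane protein that binds BMPs, −0.38 over 12. The other shared regions within 5 Mb had 0.14 around NUAK2 and −0.18 around CRIM1. YAP1 itself had −0.34 over 13 regions, with 0.23 over the other shared regions within 5 Mb. FOXF2, a forkhead factor gene, and ARHGEF17, an exchange factor gene, had 0.72 over 14 and 0.72 over 11, but −0.19 over 6 strong regions of FOXF2 and −0.19 over 2 of ARHGEF17. ARHGAP42 and ARHGAP5, genes of GTPase-activating proteins, had −0.68 over 13 regions and −0.38 over 15, whereas VAV2, an exchange factor gene, had 1.47 over 30. VAV2 had 0.45 once regions were centred within level deciles, and −0.55 over its 3 strong regions. The direction at FOXF2, ARHGEF17 and VAV2 thus turned with level. TGF-beta genes lay lower as far as named: SMAD7, an inhibitor of the pathway, had −0.67 over 8 regions, SMAD2 −0.36 over 6, TGFB2 −0.35 over 16 and LTBP1 −0.33 over 6. Their surroundings within 5 Mb were also below 0, at −0.18 for SMAD7, −0.18 for SMAD2, −0.13 for TGFB2 and −0.24 for LTBP1.

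Cytoskeletal, adhesion and identity genes were mixed. PALLD and LIMA1, which bundle actin, had medians of −0.54 over 23 regions and −0.57 over 9. The other shared regions within 5 Mb had −0.27 around PALLD and 0.10 around LIMA1. TPM4, a tropomyosin gene, had 1.02 over 9 regions and 0.02 over its 4 strong ones, and ACTN1, an actinin gene, 0.64 over 19 and 0.05 over its 6 strong ones. ITGA2, an integrin subunit for collagen, had −0.44 over 10 regions, against 0.92 over its surroundings within 5 Mb. Those surroundings reach the window at 40 to 50 Mb of chromosome 5, next to the centromere, where the median over shared regions was 1.06, while the window that holds ITGA2, at 50 to 60 Mb, had 0.03. In the EMT list, CDH2 (N-cadherin) had −0.56 over 14 regions and SNAI2 (Slug) −0.22 over 8, and PRRX1, a homeobox factor gene, 0.74 over 6. CDH1 (E-cadherin) had −0.23 over 10. Cytokine genes lay lower, with LIF at −0.50 over 8 regions, CXCL8 at −0.42 over 6, IL1B at −0.38 over 6 and CSF2 at −0.36 over 7. Around CXCL8 the other regions within 5 Mb had −0.44.

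Peaks without a partner were more numerous in selected soft. Selected soft held 42127 such peaks (32.9% of its list, 32.6% to 33.1%) and ancestral stiff 23075 (20.3%, 20.1% to 20.6%), with 1379 and 3727 more that met a stretch with skipped peak numbers in the other list and are undetermined. The median fold enrichment, the authors' value, was 2.56 for selected soft only and 3.49 for ancestral stiff only, whereas the median scaled pileup was 0.387 and 0.261. With a −log10 q of at least 10 there were 5068 and 16549. The order of the counts thus turned with the strength asked for. Of the regions in selected soft and not ancestral stiff, 44.4% were in selected stiff and 8.79% in ancestral soft. Of those in ancestral stiff and not selected soft, 29.6% were in selected stiff and 58.7% in ancestral soft.

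The presence of peaks gave the question of regain a second form. Ancestral stiff held 14870 regions that ancestral soft lacked. Selected soft had a peak at 38.3% of them (37.5% to 39.1%) and selected stiff at 41.5% (40.7% to 42.3%). Among those with a fold enrichment of 5 to 10 in ancestral stiff, 968 regions, selected soft had 25.6% (22.9% to 28.5%) and selected stiff 41.6% (38.5% to 44.8%). Between 3 and 5, with 4852 regions, the shares were 25.5% and 32.4%, and under 3, with 9020 regions, 46.5% and 46.3%. For the 8120 regions that ancestral soft held and ancestral stiff lacked, selected soft had 42.9% and selected stiff 35.0%. For regions in both ancestral lists the shares were 84.9% and 87.0% of 86417.

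The 10 strongest peaks of ancestral stiff without a partner in selected soft were also in both other lists. The first lay in PNPLA8, a phospholipase gene (fold enrichment 44.3), with no peak in selected soft and scaled pileups of 1.69 in selected stiff, 3.96 in ancestral soft and 3.36 in ancestral stiff. Peaks near KCNA5, a potassium channel gene, in ITGAM, a myeloid integrin gene, and near CD47, the gene of a surface protein that restrains phagocytes, had fold enrichments of 36.9, 32.4 and 28.6. In selected stiff these stood at 0.729, 0.645 and 0.720. GNG7, SNX9 and SIK1 were gene starts in this set, and SIK1 has a near-identical copy, so that its reads may be divided. The strongest peak of selected soft without a partner in ancestral stiff lay in PCBD2 (fold enrichment 45.0), with 7 in selected soft, 5.91 in selected stiff and 3.19 in ancestral soft. It overlaps MTND4P12, annotated as a pseudogene and named for a mitochondrial gene, and is uncertain. RGPD2 is one of a family of near-identical genes and likewise uncertain. In CDH4, the R-cadherin gene, such a peak had a fold enrichment of 16.3, with 2.53 in selected soft, 1.78 in selected stiff and none in either ancestral list.

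At gene starts, 12999 of 19126 protein-coding genes (68.0%) had a peak within 1 kb of the start in both lists. For 4025 of these genes the start is not in the table used and either end of the gene counted. Peaks in selected soft only were found at 1062 (5.55%, 5.23% to 5.89%) and in ancestral stiff only at 343 (1.79%, 1.61% to 1.99%). Asking that the peak have no partner anywhere in the other list left 943 and 307. Genes undetermined because of skipped peak numbers are in neither count but stay in the 19126. Of the 1062, selected stiff had a peak at 775 and ancestral soft at 84. Of the 343, selected stiff had one at 163 and ancestral soft at 224. EMT genes with a faint start-site peak in selected soft and none in ancestral stiff were CDH2, TWIST1, TWIST2, FOXC2 and SPOCK1, 5 of the 15 listed, and all 5 also had one in selected stiff. The EMT factors TWIST1 and TWIST2 stood at 0.505 and 0.462 in selected soft and 0.374 and 0.383 in selected stiff, and CDH2 at 0.452 and 0.364. These levels are above the lowest that each list could hold but under the typical level of 1.

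Of the 11 blood cell markers found, 5 had a faint peak at the gene start in selected soft and none in ancestral stiff, 0 the reverse, 3 a peak in both and 3 in neither. Among them CD3D, LCK, PAX5 and TAL1 stood at 0.323, 0.419, 0.441 and 0.484 in selected soft, and CD3D, LCK and PAX5 also had one in selected stiff, at 0.290, 0.355 and 0.383. ITGA11, a collagen-binding integrin gene, FBN2, a fibrillin gene, and MMP10, a stromelysin gene, had such a peak at 0.398, 0.387 and 0.527 in selected soft, of which only ITGA11 had one in selected stiff. In the other direction, IL1A, MMP7, KRT5 and GRHL2 had a start-site peak in ancestral stiff and none in selected soft. So did ATF3, at 2.225 in ancestral stiff, and FAP, at 1.03, for which either end of the gene counted. The peaks of ATF3 and FAP reach beyond the 1 kb window and had a partner in selected soft there or were undetermined. IL1A stood at 0.318 in selected stiff, 0.327 in ancestral soft and 0.311 in ancestral stiff, and KRT5 at 0.182 in ancestral stiff alone. A peak at 0.182 or 0.189, the level of KRT5 and of GRHL2 in ancestral stiff, is under the lowest listed level of selected soft, though GRHL2, for which either end of the gene counted, stood at 1.44 in selected stiff.

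Chromosomes differed in the same comparison. The median log2 ratio at strong regions was highest on chromosome 19, at 0.08, and chromosome 14, at 0.07, and lowest on chromosome 21, at −0.39, chromosome 4, at −0.37, and chromosome 18, at −0.30. With scaling over the regions of these 2 lists, chromosomes 19 and 14 would also lie below 0. The median went with gene density over the 22 chromosomes (Spearman's rank correlation 0.774, as a description). In windows of 10 Mb with at least 50 strong regions, the median of 245 windows was −0.14, and 31 lay above 0. The highest lay at 40 to 50 Mb of chromosome 5 (1.03, with 91 of 166 strong regions at least 2-fold higher), 120 to 130 Mb of chromosome 1 (0.99, 74 of 154) and 20 to 30 Mb of chromosome 19 (0.97, 77 of 157), which hold or adjoin centromeres. The lowest lay at 150 to 160 Mb of chromosome 4, at −0.58. Farther than 100 kb from a gene, 11.9% of 3033 strong regions were at least 2-fold higher and 4.65% lower, against 0.207% and 4.34% of 9660 at gene starts.

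**Figure D5:**
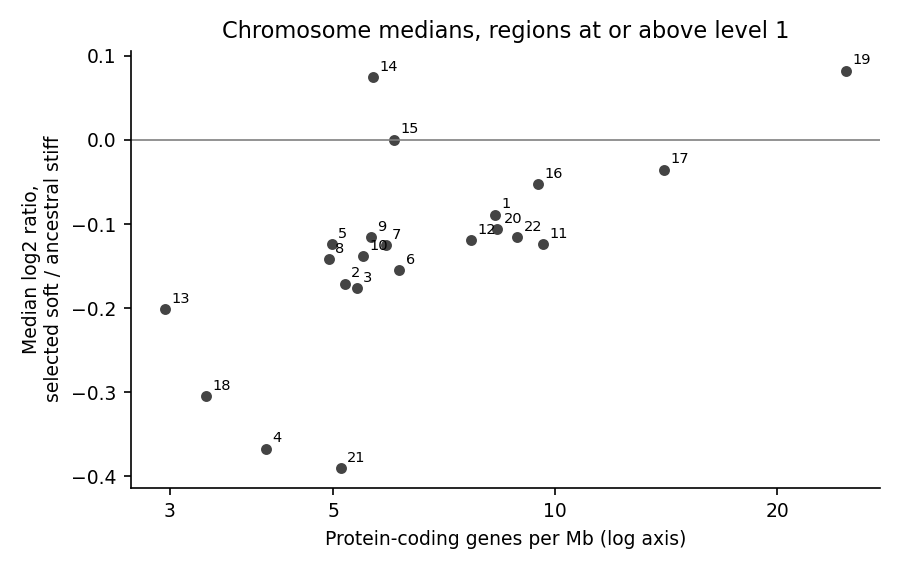
Median log2 ratio of scaled pileup (selected soft over ancestral stiff) at strong regions of each chromosome against its protein-coding genes per Mb (log axis), each point a chromosome. Gene-dense chromosome 19 lies highest at 0.08 (below 0 with scaling over these 2 lists), and chromosomes 21, 4 and 18 lie lowest at −0.39, −0.37 and −0.30.

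By a rule on the median of at least 10 shared regions, some genes lay far from their surroundings in this comparison. COL18A1, a gene of a basement membrane collagen, had 1.43 over 23 regions against 0.09 within 5 Mb. Its 7 strong regions had −0.42, so that the gene lay higher through its faint regions. ADARB2, an RNA-editing gene family member, had 1.42 over 13 against −0.06. Centred within level deciles, ADARB2 had 0.45 against −0.10, and its 1 strong region had 2.43. With centring within level deciles, SLC9A3, a sodium and proton exchanger gene, had 1.47 over 11 regions, and PXDN, a peroxidase of basement membranes, −0.64 over 10. Peaks in selected soft only were most numerous at TRAPPC9 (170, against 1 in ancestral stiff only), PTPRN2 (161 and 4) and CDH4 (125 and 3). In the 5 Mb around each gene the balance was alike in direction, with 440 and 22 such peaks around TRAPPC9, 355 and 37 around PTPRN2, and 570 and 49 around CDH4. KAZN and TENM3 were among the genes with the most peaks in ancestral stiff only. KAZN had 44 peaks in selected soft only and 30 in ancestral stiff only, and TENM3, a teneurin gene, 1 and 24. Around TENM3 the other peaks within 5 Mb numbered 10 in selected soft only and 84 in ancestral stiff only.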

How the data were processed

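ATAC-seq libraries were made from nuclei with an Active Motif kit, per the labels' protocols. The submitters' processing notes name GRCh38 and, among the tools, MACS2 2.2.7.1, Bowtie2 2.4.5, Trimmomatic 0.36, MultiQC 1.1 and FastQC 0.11.4. The way the 4 samples of a group were combined is, like the options used, not given in the sources used here. The authors deposited 1 peak list per group with, per the file headers, the pileup signal at the summit, the −log10 q-value and the fold enrichment of each peak. Pileups are deposited as whole numbers. A −log10 p-value is also given and was not used here.

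Each list skips between 1107 and 1311 of its own peak numbers. A peak without a partner that meets a stretch with a skipped number in the other list was called undetermined, and regions that reach such a stretch were left out of the strong set. The naming rule picked, as written, mainly regions at such stretches, such as RRAS and H4C15, and was repeated on the regions clear of them.

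Peaks were merged on overlap of at least 1 bp on chromosomes 1 to 22, and pileup was scaled as described. Shared regions, by their midpoint, and single peaks, by their summit, went to the closest gene within 100 kb among 19126 that code for protein (GRCh38.p14). The naming rule took, per direction, the 10 shared regions with the largest ratio and a pileup of at least 50, 10 peaks of each list without a partner, by fold enrichment, list members with a start-site peak in 1 list only or up to 4 per list with the largest median over at least 5 regions, and the 5 genes farthest from their surroundings or with the most unshared peaks. The members, the 24 gene lists (383 of 394 symbols found) and these rules were chosen with earlier results of these data known. A few items, among them 1 gene list, are not reported here. Strong regions, gene starts by GC content, the genes with the largest differences at strong regions or by gel in ancestral cells, and the printed sequences were chosen after the values were seen. No test between groups was possible with 1 list each. The steps were tested on simulated data, and the software was scipy 1.17.1, numpy 2.4.6, matplotlib 3.10.9 and pandas 2.3.3 under python 3.11.15. Alternatives in overlap, threshold, list length, scaling, background, level and position were tried.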

Additional observations from a re-analysis of the deposited data

How the results depend on the processing

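No paired analysis was possible because the deposited files hold 1 list per group, and for the same reason no replicate could be left out. Strength turned the count of unshared peaks: the log2 ratio of selected soft only to ancestral stiff only was 0.87, and −1.57 with −log10 q of at least 10 in both lists (8819 in selected soft only), −1.71 with that limit and no partner of any q (5068), and 0.19 with lists of equal length (27243). Regions at least 2-fold higher numbered 16347, and 3689 when centred within level deciles, 8345 when centred on 5 Mb, 8175 with the q limit and 710 at a level of at least 1. Regions at least 2-fold lower numbered 1894, and 2960 when scaled over these 2 lists, 4014 when centred on 5 Mb and 1106 with the q limit. The median log2 ratio was 0.19, and 0.064 when scaled over these 2 lists, 0.22 with background subtracted, 0.16 with the q limit, −0.12 at a level of at least 1 and, by construction, 0 with either centring. The cause of these moves was not tested, apart from the smaller number of regions under the q and level limits.

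The share of stiff-only ancestral regions found in selected soft was 38.3%, and 44.4% with an overlap of 50%, 36.6% with a 500 bp gap, 18.3% with the q limit and 28.7% with equal lengths. That of soft-only ancestral regions was 42.9%, and 48.9%, 20.3% and 38.0% with the overlap of 50%, the q limit and equal lengths. Nearness to ancestral stiff at regions higher on stiff gel was 37.9%, and 33.1% with scaling over the 2 lists, 50.2% with background subtracted, 29.9% and 31.5% with centring by level and by position, 22.6% at 2-fold and 12.2% at a level of at least 1. At regions lower on stiff gel it was 16.1%, and 18.1%, 40.5%, 29.0%, 12.7% and 56.0% in the same order without background subtraction, which left it within its interval.

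The shared share of selected soft with selected stiff, ancestral soft and ancestral stiff was 70.6%, 58.0% and 57.5% with the gap, 79.7%, 65.3% and 62.4% with the q limit, and 72.2%, 59.8% and 58.7% with equal lengths. The SD of their log2 ratios was 0.40, 0.75 and 0.83 with background subtracted. For ancestral soft and ancestral stiff it was 0.54 and 0.61 with the q limit and 0.52 and 0.56 with centring by level. The median of YAP/TAZ targets was −0.31 at a level of at least 1. With the q limit 384 genes had a start-site peak in selected soft only. The spread of chromosome medians was 0.38 with centring by level, against 0.60.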
